A study of Homo sapiens with 2 samples.

Results

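Of the 60126 broad CHD4 peaks called in 501Mel melanoma cells, 11540 lay inside protein-coding genes, in an intron beyond the first one and away from any promoter. They are called later-intron peaks here. A later-intron peak was on chromosomes 1 to 22 or X, was longer than 200 bp and shorter than 3 kb, and did not overlap the 1000 bp on either side of any annotated transcript start. Its centre lay in the second intron or a later one of the canonical transcript of a protein-coding gene, and in no canonical exon and no canonical first intron of any gene. These rules use position and length only, so neither the strength of a peak nor its sequence entered the choice. The 11540 peaks made up 19.2% of the 60099 peaks on these chromosomes. By the same position rules 13942 peaks were at promoters, counted at any length. Away from promoters, 6859 were outside the length limits. Within the limits, 5275 were in first introns, 1110 in exons and 13176 between genes. The other 8197 lay in other places, such as genes that are not protein coding.

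501Mel is an established human melanoma line, grown here in RPMI medium with foetal calf serum and given no treatment. From fixed and sonicated chromatin of these cells the study made 1 ChIP library for CHD4 and 1 of input, with no replicates and no comparison between conditions. Nothing therefore measures the spread between samples, and no test between groups was possible. Every interval given covers counting error only, as if peaks were independent of each other. For each region the peak list holds its position, its enrichment as a fold over background, and p and q as −log10, but no reads, so depth cannot be read from it and cell identity cannot be checked against expressed markers.

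CHD4 is the ATPase of the NuRD complex, which slides nucleosomes and carries histone deacetylases. NuRD is brought to promoters and enhancers by transcription factors and by the state of the chromatin rather than by a DNA motif of its own. Introns hold many enhancers, and in melanocytes enhancers of this kind are bound by MITF, a factor that reads the M-box (TCATGTG) and related E-boxes, by SOX10 and by AP-1.

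The sequences below show what the strongest statements on sequence rest on, and all of them are the plus strand of hg19 written 5′ to 3′. The first set shows the most enriched word. Among the 18655 words of 8 letters present in at least 1% of the windows within 250 bp of the peak centres, CATGTGAC (GTCACATG on the other strand) had the highest ratio of this share to that in flanks 5000 bp away, and the 6 peaks of highest fold enrichment that held it within 50 bp of the centre and held no TG repeat are given with the 75 bp on either side of the centre. They were chosen after the word counts were seen, and capitals mark the word on either strand.
*ZRSR2*, chrX:15833058-15833208: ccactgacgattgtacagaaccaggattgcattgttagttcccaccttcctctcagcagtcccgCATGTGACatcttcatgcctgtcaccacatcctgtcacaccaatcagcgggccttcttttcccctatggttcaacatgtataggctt
*CHL1*, chr3:305803-305953: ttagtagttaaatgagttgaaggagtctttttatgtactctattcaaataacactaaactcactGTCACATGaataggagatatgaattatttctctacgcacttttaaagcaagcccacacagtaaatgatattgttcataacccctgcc
*MAN1C1*, chr1:26091788-26091938: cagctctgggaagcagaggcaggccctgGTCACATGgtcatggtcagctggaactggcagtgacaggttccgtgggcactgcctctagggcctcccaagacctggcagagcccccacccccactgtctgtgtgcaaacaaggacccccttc
*PCDH9*, chr13:67636448-67636598: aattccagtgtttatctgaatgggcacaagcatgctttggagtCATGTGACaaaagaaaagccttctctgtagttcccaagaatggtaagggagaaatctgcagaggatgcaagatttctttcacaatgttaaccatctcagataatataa
*ITPR2*, chr12:26676872-26677022: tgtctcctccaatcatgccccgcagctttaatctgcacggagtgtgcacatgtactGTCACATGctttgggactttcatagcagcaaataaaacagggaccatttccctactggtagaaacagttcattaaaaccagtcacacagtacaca
*FAM13A*, chr4:89922233-89922383: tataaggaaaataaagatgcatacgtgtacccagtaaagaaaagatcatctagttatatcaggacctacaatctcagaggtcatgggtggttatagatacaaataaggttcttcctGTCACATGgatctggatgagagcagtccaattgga

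The second set shows CTCF, the insulator protein, whose motif had a larger ratio of peaks over flanks than AP-1 or the M-box. The windows are those of the 3 peaks of highest fold enrichment with the motif within 50 bp of the centre, chosen after the matches were known. In each, capitals mark the match to the CTCF motif on either strand.
*PSORS1C1*, chr6:31095964-31096114: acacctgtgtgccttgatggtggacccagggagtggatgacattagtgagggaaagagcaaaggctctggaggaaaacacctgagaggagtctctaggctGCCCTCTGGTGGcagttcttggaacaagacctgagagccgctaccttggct
*ADAM11*, chr17:42856552-42856702: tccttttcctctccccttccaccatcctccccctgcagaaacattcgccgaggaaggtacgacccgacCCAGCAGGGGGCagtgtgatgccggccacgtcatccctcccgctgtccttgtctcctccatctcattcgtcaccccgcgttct
*TCF7L1*, chr2:85527574-85527724: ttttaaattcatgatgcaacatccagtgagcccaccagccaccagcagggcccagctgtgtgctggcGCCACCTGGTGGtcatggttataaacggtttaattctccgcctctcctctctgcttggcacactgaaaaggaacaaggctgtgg

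The third set comes from the later-intron peaks of *PADI1* and *PADI3*, the neighbouring genes of arginine deiminases that are the subject of the study. The *PADI1* window, 100 bp on either side of its midpoint, is placed on a CTCF match and an AP-1 match, both in capitals, and the *PADI3* window is placed on the centre of its peak, where no CTCF or AP-1 match was found.
*PADI1*, chr1:17563634-17563834: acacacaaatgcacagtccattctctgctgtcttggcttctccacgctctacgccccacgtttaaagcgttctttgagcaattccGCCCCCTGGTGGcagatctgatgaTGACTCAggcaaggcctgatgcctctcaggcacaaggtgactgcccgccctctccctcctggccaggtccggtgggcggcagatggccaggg
*PADI3*, chr1:17600628-17600828: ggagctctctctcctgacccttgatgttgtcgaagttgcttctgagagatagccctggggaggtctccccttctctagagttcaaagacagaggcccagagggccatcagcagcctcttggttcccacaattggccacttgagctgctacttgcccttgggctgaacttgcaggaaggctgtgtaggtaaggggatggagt

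The last set gives the 75 bp on either side of the centre for the other 5 peaks among the 6 of highest −log10 q, the remaining one being the *PSORS1C1* peak above. It is shown because the strongest later-intron peaks did not share a motif. The windows of *KCNN3* and *SRBD1* were runs of TG and related repeats.
*KCNN3*, chr1:154686777-154686927: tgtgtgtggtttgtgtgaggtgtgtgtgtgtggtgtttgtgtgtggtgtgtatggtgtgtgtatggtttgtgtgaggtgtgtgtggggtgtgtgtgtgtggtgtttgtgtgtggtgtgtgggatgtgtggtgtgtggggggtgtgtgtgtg
*CRYL1*, chr13:21072062-21072212: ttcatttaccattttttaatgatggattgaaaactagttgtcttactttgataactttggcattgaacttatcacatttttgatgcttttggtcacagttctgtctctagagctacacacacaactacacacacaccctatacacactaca
*SGMS1*, chr10:52299445-52299595: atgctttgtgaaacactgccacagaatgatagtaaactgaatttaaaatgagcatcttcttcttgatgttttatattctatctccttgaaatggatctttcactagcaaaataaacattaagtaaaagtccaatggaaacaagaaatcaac
*SMYD3*, chr1:246039270-246039420: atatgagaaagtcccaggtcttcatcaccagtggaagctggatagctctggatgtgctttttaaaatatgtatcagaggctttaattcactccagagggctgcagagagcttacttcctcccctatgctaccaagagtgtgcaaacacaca
*SRBD1*, chr2:45641680-45641830: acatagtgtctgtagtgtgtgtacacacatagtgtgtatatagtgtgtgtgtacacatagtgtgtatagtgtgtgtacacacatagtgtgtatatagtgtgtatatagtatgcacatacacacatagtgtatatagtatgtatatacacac

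Later introns were less densely occupied than first introns and more densely than the sequence between genes. The 713 Mb of later-intron sequence open to such peaks held 16.2 peaks per Mb (95% interval 15.9 to 16.5), against 22.6 per Mb (21.99 to 23.2) in 233 Mb of first introns. Exons away from promoters held 16.2 per Mb (15.3 to 17.2) and intergenic sequence 12.7 per Mb (12.5 to 12.9). The ratio of later to first introns was 0.716 (0.693 to 0.740), that of later introns to intergenic sequence was 1.28 (1.245 to 1.31), and that of later introns to exons was 0.997 (0.938 to 1.06), whose interval includes 1. Counted in bases, peaks covered 1.34% of later introns, 1.82% of first introns and 1.06% of intergenic sequence.

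Pooled over genes, the density fell with the number of the intron. Only genes with many introns enter the last classes, and introns were not compared within the same gene. The second intron held 20 peaks per Mb, the third 18.1, the fourth 16.7 and the fifth 15.8, followed by 14.6 in introns 6 to 10 and 13.3 from intron 11 on. As the plot of density by class and intron number shows, the value of the second intron came close to that of first introns, and the last class came close to intergenic sequence. The ratio of the second intron to introns from the sixth on was 1.44 (1.37 to 1.51), a comparison added after this order was seen. Second introns lie nearer to the start of the gene, and compared at the same distance from the start the ratio was 1.41 (1.34 to 1.49), while at the same GC content it was 1.42 (1.36 to 1.49). The difference was widest from 20 to 50 kb after the start, with 25.6 peaks per Mb in second introns and 14.7 from the sixth on, and it was not seen over 200 kb from the start, with 11.8 and 12.9.

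**Figure D1:**
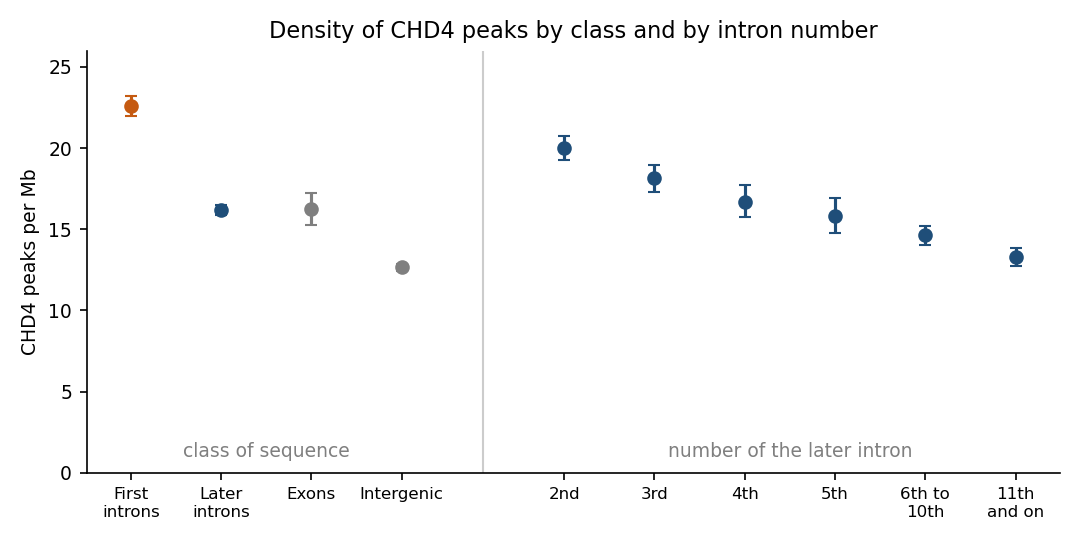
Peaks per Mb (vertical axis) in first introns, later introns, exons and intergenic sequence on the left, and by the number of the later intron on the right. Points are densities and bars are 95% Poisson intervals. Later introns at 16.2 per Mb lie between first introns at 22.6 and intergenic sequence at 12.7, and the density falls from 20 in the second intron to 13.3 from the eleventh on.

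At the same distance from the gene start first introns were still denser than later introns up to 100 kb. Under 5 kb from the start of the canonical transcript later introns held 15.8 peaks per Mb and first introns 24.5, and from 10 to 20 kb these values were 16.1 and 25.3. Later introns were densest from 50 to 100 kb, at 19.1 per Mb, where first introns held 23.6. Farther out the order turned, with 17.5 against 14.7 from 100 to 200 kb and 12.3 against 8.12 over 200 kb. Combined over the 7 distance classes, the ratio of later to first introns was 0.783 (0.754 to 0.812), an average over classes that went in opposite directions. Combined over classes of GC content it was 0.729 (0.705 to 0.753). The order did not hold for the strongest peaks, since at a −log10 q of 5 or more the ratio at the same distance was 1.15 with an interval of 0.821 to 1.62 that includes 1.

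**Figure D2:**
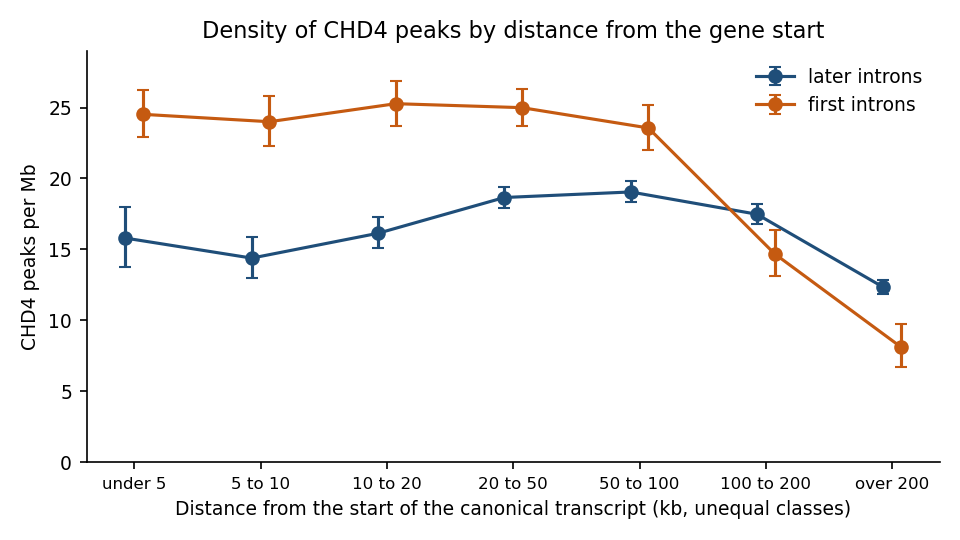
Peaks per Mb (vertical axis) against the distance from the start of the canonical transcript in 7 unequal classes (kb), for later and for first introns. Points are densities and bars are 95% Poisson intervals. First introns lie above later introns in the 5 classes up to 100 kb, with 24.5 and 15.8 per Mb in the nearest, and below them beyond, with 8.12 and 12.3 in the farthest.

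The peaks lay far from the start of the host gene, as did the sequence open to them. Their centres were a median of 84420 bp from the canonical start (quartiles 37550 and 187800), 44.5% of them more than 100 kb from it. Of the 713 Mb of later-intron sequence, 141 Mb lay 100 to 200 kb from the start and 216 Mb over 200 kb from it. Together these are a larger part of the sequence than 44.5%. The peak centres were a median of 4888 bp from the nearest splice site of the host intron. The density near splice sites was lower, at 13.8 peaks per Mb within 500 bp and 18.4 per Mb from 5 to 10 kb, so that 10.4% of the peaks were within 500 bp of one. Only 8.69% of the peaks overlapped a canonical exon by any base, and 2.01% had their centre in an exon of another transcript. Long introns were denser than short ones up to a point, with 12.1 peaks per Mb in introns under 2 kb, 19.6 in introns of 20 to 50 kb and 12.7 in introns over 100 kb. The nearest annotated start of any transcript was a median of 10920 bp away, much closer than the canonical start of the host gene.

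The density rose with GC content. It was 13.1 peaks per Mb where the surrounding 1000 bp held under 36% GC and 19.9 per Mb where they held 52% or more. The share that reached a −log10 q of 2 rose along with it, from 35.4% to 48.8%. The middle classes lay in order between these ends. Along the intron itself the density varied little, from 14.5 per Mb in its first 10% to 17.5 between 80% and 90% of its length.

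Chromosomes differed more than any of these classes. Later introns of chromosome 22 held 25.6 peaks per Mb, those of chromosome 19 held 24.4 and those of chromosome 17 held 22.9, while those of chromosome X held 4.65, those of chromosome 14 held 9.04 and those of chromosome 18 held 10.9. Intergenic sequence moved with them, from 27.9 per Mb on chromosome 22 to 2.70 on X. Within chromosomes, the ratio of later introns to intergenic sequence ran from 0.873 on chromosome 19 to 2.06 on chromosome 18, and combined over chromosomes it was 1.21 (1.18 to 1.24), while that of later to first introns was 0.719 (0.696 to 0.743). The files do not measure how many copies of each region 501Mel carries, and the part of copy number in these densities was not tested.

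By strength the later-intron peaks were ordinary members of the list. Their fold enrichment had a median of 3.02 with quartiles of 2.82 and 3.32, running from 1.66 to 8.63, and the median was 3.02 in first introns, 3.03 in exons and 3.04 between genes. Promoter peaks were stronger, with a median of 3.19. The list reaches down to weak calls, with a lowest −log10 q of 1.005 among later-intron peaks and 1.004 among all peaks on these chromosomes. A −log10 q of 2 or more was reached by 4700 of the later-intron peaks, or 40.7% (39.8% to 41.6%), where it was reached by 48.5% of all peaks of the list. This share was 40.2% in first introns, 43.9% between genes, 44.1% in exons and 56.7% at promoters. At a −log10 q of 5 or more there were 175 later-intron peaks, or 1.52% (1.31% to 1.76%), against 2.23% of all peaks. Both shares were thus below that of the whole list, which includes the promoter peaks and the 6859 peaks outside the length limits. Of the latter, 67.6% reached a −log10 q of 2 and 3.92% reached 5.

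**Figure D3:**
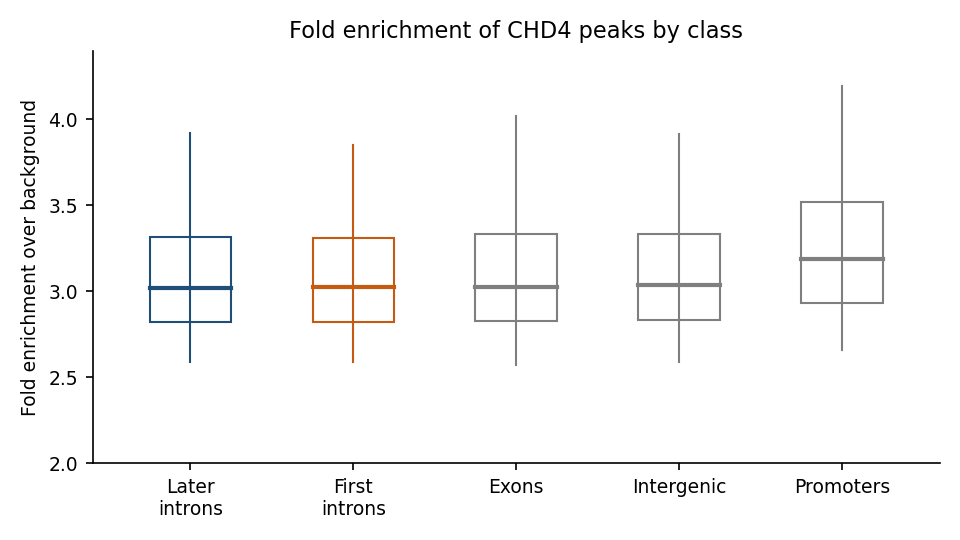
CHD4 ChIP signal as a fold over background (vertical axis, from 2.0) for later-intron, first-intron, exon, intergenic and promoter peaks. Lines inside the boxes are medians, boxes span the quartiles and whiskers run from the 5th to the 95th percentile of the peaks. The first 4 boxes nearly coincide, with medians of 3.02 to 3.04, and promoter peaks sit higher at 3.19. Promoter peaks are of any length, and the others are within the length limits.

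Strength went with length. Later-intron peaks of at most 400 bp had a median fold enrichment of 2.91, and those over 1200 bp one of 3.28, while the share reaching a −log10 q of 2 rose from 26.6% to 71.3%. The median length was 628 bp with quartiles of 404 and 1068 bp. The length limits left out regions with centres in the same introns, namely 1483 of at most 200 bp and 528 of 3 kb or more. Just outside the lower limit the median fold was 3.18, and in the 745 peaks up to 250 bp long it was 2.94. In the 286 peaks within 500 bp inside the upper limit it was 3.45 and in 183 within 500 bp beyond it 3.43.

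The strongest later-intron peaks lay in genes of unrelated functions. The highest fold enrichment, 8.63 with a −log10 q of 24.4, was that of a peak in intron 6 of *KCNN3* (chr1:154686372-154687331), which encodes a calcium-activated potassium channel, and the TG repeats printed above are at its centre. The next were in intron 2 of *CRYL1* with 6.68, intron 2 of *PSORS1C1* with 6.13, intron 8 of *SMYD3*, a lysine methyltransferase gene, with 5.86, and intron 18 of *SRBD1* with 5.76. Of the 10 highest the others were in *ERP44*, a chaperone of the endoplasmic reticulum, *ELL*, an elongation factor of RNA polymerase II, *EPS15*, an adaptor of endocytosis, *ZCCHC14* and *TBC1D22B*, with values from 5.40 to 5.57. In all, 28 later-intron peaks reached a fold of 5. The *CRYL1* window held short CA runs, whereas those of *SMYD3* and *SGMS1* were mixed sequence without a match to AP-1, CTCF or the M-box.

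Later-intron peaks came in groups. The nearest other peak of the list was a median of 3761 bp away (2859 bp in first introns and 3356 bp between genes), and 55.5% had another peak within 5000 bp. Of the 169482 later introns, 6917 held at least 1 peak, 1994 at least 2, 332 at least 5 and 59 at least 10, and 57.3% of the peaks were in an intron with at least 1 other. Named after their values were seen, the fullest introns were as follows. Intron 22 of *BCAS3* held the most, with 29 peaks in 284 kb, followed by intron 2 of *LHFPL3* with 27 in 169 kb, and intron 2 of *CHST11* and intron 5 of *NSMCE2* with 25 each. At 161 peaks per Mb the *CHST11* intron, in a gene of chondroitin sulfation, was the densest of these 4.

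Counted by gene, 3984 of 14880 protein-coding genes with at least 1000 bp of later-intron sequence had a later-intron peak, or 26.8% (26.1% to 27.5%). This share followed the length of the later introns, from 3.98% of genes with 1 to 5 kb to 74.8% of those with over 200 kb. The density did not follow it in the same way, since it rose from 13.5 per Mb in genes with 5 to 10 kb to 19.6 in genes with 100 to 200 kb and was 13.3 in the longest. A peak in introns of overlapping genes counts for each of them, which gives 11844 pairs of a gene and a peak. They were unevenly shared out, with 684 genes of at least 5 peaks holding 53.2% of the pairs, and 10 genes holding 30 or more.

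*SEMA5A*, the gene of a semaphorin that guides axons, had the most later-intron peaks, 55 in 380 kb on chromosome 5. That was 145 per Mb (109 to 188), against 19.9 per Mb in the 2 Mb on either side of the gene. The peaks were spread over 15 introns, with 11 in the second, and had fold enrichments from 2.31 to 3.50. Their median fold of 2.77 was below the 3.02 of all later-intron peaks, while 24 of the 55 reached a −log10 q of 2, beside 40.7% of all. Its first intron was as dense, with 15 peaks in 99.6 kb. *EPHA3*, an ephrin receptor gene, had 37 peaks at 107 per Mb against 12.7 around it, and *ROBO1*, the gene of a receptor for the guidance cue Slit, had 33 at 34.9 per Mb against 3.06 around it, with no peak in 176 kb of its first intron. The other genes of at least 30 were *BCAS3* with 39, *PLCB4* and *COL25A1* with 34 each, and *NSMCE2*, *SOX6*, *NFIA* and *NLGN1* with 31 each.

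Of the 10 densest genes with at least 5 peaks, *DLL3* and *BMF* had less later-intron sequence than the median gene, 16.8 kb, and the other 8 had more. *DLL3*, which encodes an inhibitory ligand of Notch, had 5 peaks in 6.88 kb of later introns, with 1 in each of introns 2 to 6 and fold enrichments of 3.41, 2.89, 3.63, 2.87 and 3.39 in that order. The gene *BMF*, for a protein that promotes apoptosis, had 6 in 13.1 kb, all in intron 4, with folds from 2.66 to 3.71. In both genes the peaks followed each other along the sequence, and none was above a fold of 4. Neighbouring *DLL3* peaks, and some of the *BMF* peaks, lay within 1000 bp of each other. If joined, the *DLL3* peaks would form a single region longer than 3 kb, outside the length limits. The place of these genes among the densest thus depends on whether such peaks are joined. *FASTKD2*, *ERP27*, *PALMD*, *GMPR*, *PUM3*, *C1orf141* and *TSPAN14* had 5 to 8 each at 199 to 314 per Mb, and *ZNF608*, a zinc finger gene, had 20 in 94.1 kb, 11.3 times the density of its surroundings.

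**Figure D4:**
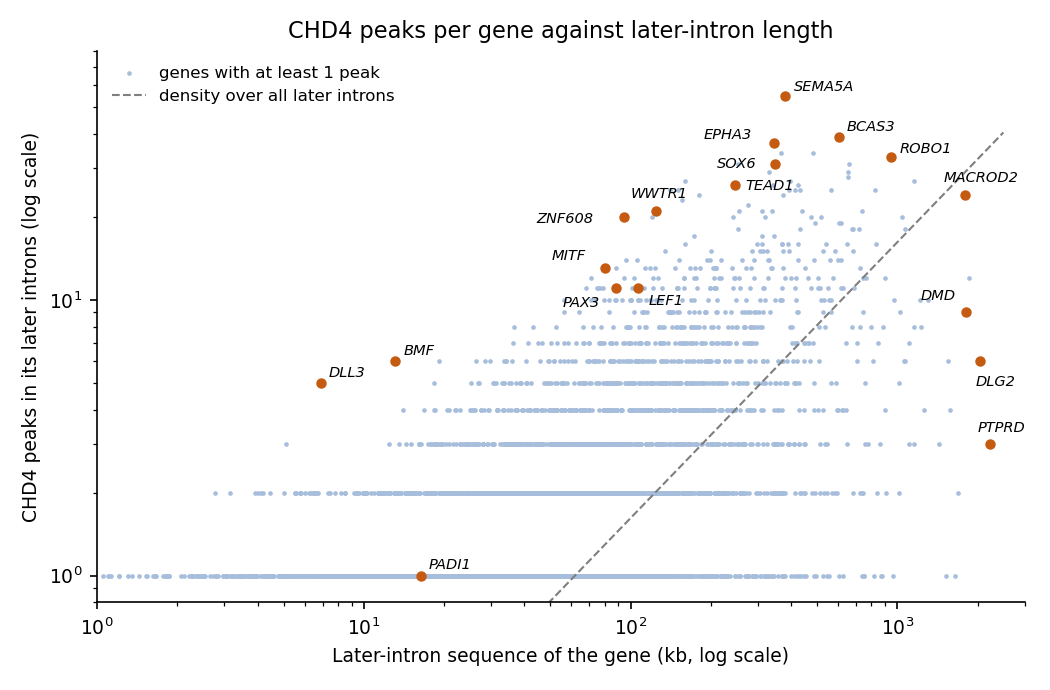
Number of later-intron peaks per gene (vertical axis, log scale) against the later-intron sequence of the gene in kb (horizontal axis, log scale). Each pale point is a gene with at least 1 peak, orange points are named genes and the dashed line is the density over all later introns, 16.2 per Mb. *SEMA5A* tops the plot with 55 peaks, *DLL3* and *BMF* stand far above the line at short lengths, and the very long genes *DMD*, *DLG2* and *PTPRD* lie below it.

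Genes of the melanocyte lineage were dense in later-intron peaks. The list of 26 such genes had 25 with enough sequence, of which 18 held 100 peaks in 1.88 Mb, or 53.1 per Mb (43.2 to 64.6), against 16.2 per Mb over all genes. The 18 genes were 72.0% of the 25, where 26.8% of all genes had a peak, but the listed genes were also longer, with a median of 33.8 kb of later introns against 16.8 kb. The peaks were concentrated in 4 transcription factor genes. *SOX6* had 31, *MITF* 13, *PAX3* 11 and *LEF1* 11, and the other 21 genes held 34 peaks at 27.0 per Mb. These peaks were of ordinary strength, and 37 of the 100 had a −log10 q of at least 2.

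*MITF*, the master regulator of melanocytes, held its 13 peaks in 80.4 kb, 162 per Mb against 19.2 per Mb around the gene. Of them 10 were in intron 2, between 142753 and 192549 bp after the canonical start, with folds from 2.53 to 3.63, and 1 each in introns 5, 7 and 9. The strongest was chr3:69962526-69962892, with a −log10 q of 3.26 and an AP-1 match, and 4 of the 13 held an M-box anywhere in the peak, where 17.9% of all later-intron peaks did. The first intron was nearly as dense, with 18 peaks in 128 kb, or 141 per Mb. *PAX3*, an upstream regulator of *MITF*, had 10 of its 11 peaks in intron 4, with folds from 2.89 to 3.80, and its strongest, with 3.91, in intron 5. An M-box was found anywhere in the peak in 6 of these 11, but in 4 of the 31 *SOX6* peaks and 0 of the 11 *LEF1* peaks. A longer peak has more room for a match, and the M-box counts of these genes were not matched for length. *LEF1*, a partner of β-catenin, had all 11 in intron 3, 1 of them at 4.09 and the rest from 2.60 to 3.37.

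Among the pigment genes proper, of which those with few peaks were picked out after their values were seen, peaks were few but included strong ones. *OCA2*, the gene of a melanosomal channel, had 5 peaks. The highest of them, in intron 18, had a fold of 4.71 and a −log10 q of 6.09, followed by 3.99 in intron 19 and 3.39 in intron 2. In the neighbouring *HERC2*, outside the list and named after its values were seen, a peak in intron 86 (chr15:28364662-28366345) had a fold of 4.33 and a −log10 q of 4.86. That intron is known for an enhancer that acts on *OCA2*. *IRF4*, which works with MITF on pigment genes, had peaks of 3.68 and 3.20 in introns 3 and 5, and *TYR*, the gene of tyrosinase, had 3 with folds from 2.97 to 3.38. *TYRP1* and *SLC24A5* had 1 each, and *DCT*, *MLANA*, *PMEL*, *TRPM1* and *GPNMB* had 0.

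The genes of the YAP, TAZ and TEAD pathway were as dense as the melanocyte list, with 68 peaks at 53.1 per Mb (41.3 to 67.4) in 9 of 16 genes. Their median of later introns was 52.2 kb, and 56.3% of them had a peak, against 26.8% of all genes. The density rested largely on *TEAD1* and *WWTR1*, which held 47 of the 68 peaks, while the other 14 genes held 21 at 23.1 per Mb. *TEAD1*, the DNA-binding partner of YAP and TAZ, held 26, in introns 2, 3 and 5, with folds from 2.64 to 4.16. *WWTR1*, which encodes TAZ, held 21, of which 15 in intron 2, with folds from 2.53 to 3.68. *YAP1* had 7 and *STK4*, an upstream kinase, had 6, while *TEAD2*, *TEAD3*, *TEAD4*, *LATS1*, *NF2*, *MOB1A* and *VGLL4* had 0. Anywhere in the peak, an M-box was found in 11 of the 26 *TEAD1* peaks and in 5 of the 21 *WWTR1* peaks, beside 17.9% of all later-intron peaks. These counts too were not matched for peak length.

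Other gene lists differed widely, and their shares of genes with a peak stand beside 26.8% of all genes, a share that follows length. The axon guidance and adhesion genes, with *SEMA5A*, *EPHA3* and *ROBO1* among them, were at 16.9 per Mb (14.6 to 19.4) with 197 peaks in 24 of 33 genes (72.7%, with a median of 206 kb of later introns), so that the list as a whole had the density of all genes. MAPK pathway genes held 22 peaks in 9 of 20 genes (45.0%, median 43.0 kb) at 24.3 per Mb (15.2 to 36.7), led by *ETV5* and *SOS1* with 6 each. The genes of NuRD itself held 8 in 4 of 15 genes (26.7%, median 15.5 kb) at 19.0 per Mb (8.19 to 37.4), with 5 in *MTA3*, 1 each in *CHD3*, *CHD5* and *GATAD2A*, and 0 in *CHD4*. Lower densities came from 2 lists. Glycolysis genes held 1 peak, in *PFKFB2*, in 1 of 18 genes (5.56%, median 13.7 kb), or 2.85 per Mb (0.0721 to 15.9). The very long genes held 74 peaks in 14 of 20 genes (70.0%, median 1240 kb) at 3.04 per Mb (2.39 to 3.82). Those 74 included 24 in *MACROD2*, 9 in *DMD*, the dystrophin gene, 8 in *IL1RAPL1*, and 3 in 2227 kb of *PTPRD*.

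A list was made of 11 genes named in the study's text on CHD4, which is not every gene named there. Of these, 10 had enough later-intron sequence, with a median of 13.6 kb. Among the 10, 6 genes (60.0%, beside 26.8% of all genes) held 32 peaks. *MAP2*, the gene of a neuronal microtubule protein, had 15 and *MITF* 13, while *PADI1*, *PADI3*, *SOX10* and *CHD3* had 1 each and *RAC2*, *CNTFR*, *CHD4* and *PKM* had 0. The *PADI1* peak, centred in intron 11 of 15, had a fold of 4.70, higher than 99.4% of later-intron peaks. A CTCF match and an AP-1 match in it lay 145 and 167 bp from the centre, with 12 bases between them in the window printed above. The *PADI3* peak, in intron 10, had a fold of 3.26, above 71.3% of later-intron peaks. Elsewhere in the cluster *PADI4* had 0, *PADI2* had 3, with folds of 3.77, 2.79 and 2.57 in introns 6, 4 and 3, and *PADI6* had 1 of 3.91 in intron 10, so that *PADI1* held the strongest of the 6 later-intron peaks of the family. With 0.119 Mb of later introns in all, the density of 50.6 per Mb had an interval of 18.6 to 110.2.

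The peak centres carried recognisable sequence. An M-box (TCATGTG, either strand) was found within 250 bp of the centre in 12.3% of later-intron peaks (11.7% to 12.9%), in 7.38% of flanks 5000 bp away and in 7.69% of all windows of the same length in later introns outside peaks. The ratio of centres to flanks was 1.67 (1.55 to 1.79). The same letters in reverse order, which keep the base composition, gave 1.26 (1.12 to 1.42). AP-1 (TGACTCA) was found in 11.1% of centres, 7.49% of flanks and 7.28% of all such windows, with a ratio of 1.48 (1.37 to 1.59), against 1.13 (1.04 to 1.22) for its letters reversed. CTCF was rarer and had a larger ratio, with 1.38% of centres, 0.203% of flanks and 0.162% of all such windows, or 6.80 (4.70 to 9.84).

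Among further motifs of melanocyte factors the E-box CACGTG, in 7.36% of centres, had a ratio of 1.57, between those of the M-box and AP-1. The ratio was 1.31 for LEF/TCF (CTTTGAT), 1.24 for SOX (AACAAAG, in 16.5% of centres), 1.32 for TFAP2 (GCCNNNGGC) and 1.202 for TEAD (GGAATGT). Reversed letters gave 1.03 for LEF/TCF and 1.09 for SOX. The other motifs of this paragraph were not counted with reversed letters. Those of the M-box reached 1.26, so small ratios here may not be particular to the motif. The POU motif (ATGCAAAT) was less frequent in centres, at 3.32% against 4.48% of flanks, a ratio of 0.741 (0.656 to 0.836). The RUNX motif TGTGGTT had a ratio of 1.13 (1.06 to 1.22). It was 1.16 (1.07 to 1.25) for the GATA motif AGATAAG. The FOX motif TGTTTAC gave 1.09, with an interval of 1.01 to 1.18. CRE (TGACGTCA) was in 0.286% of centres with a ratio of 2.82 (1.57 to 5.07). The ETS motif CCGGAAGT was in 0.364%, with 1.80 (1.14 to 2.82). SP/KLF (GGGCGGG) was in 3.09%, with 1.62 (1.40 to 1.88). The palindromic NFI motif (TTGGC and GCCAA, 5 bases apart) was present in 24 centres, with a ratio of 8.73 and a wide interval of 3.03 to 25.1. At least 1 of M-box, AP-1, SOX, TEAD, CTCF and LEF/TCF was found in 46.4% of centres and in 36.2% of flanks.

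Matches lay close to the centre. In the profiles of matches within 2 kb of the centres, those of the M-box were 1.71 times as frequent per 100 bp within 200 bp of the centre as at the 5 outermost bins on either side, those of AP-1 1.48 times and those of CTCF 5.70 times, while POU was at 0.895. M-box and AP-1 occurred together in 185 centres, and AP-1 was present in 13.0% of centres with an M-box and 10.8% of those without. Few matches shared bases, with 137 of the 2436 M-boxes in the peaks overlapping another motif searched.

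**Figure D5:**
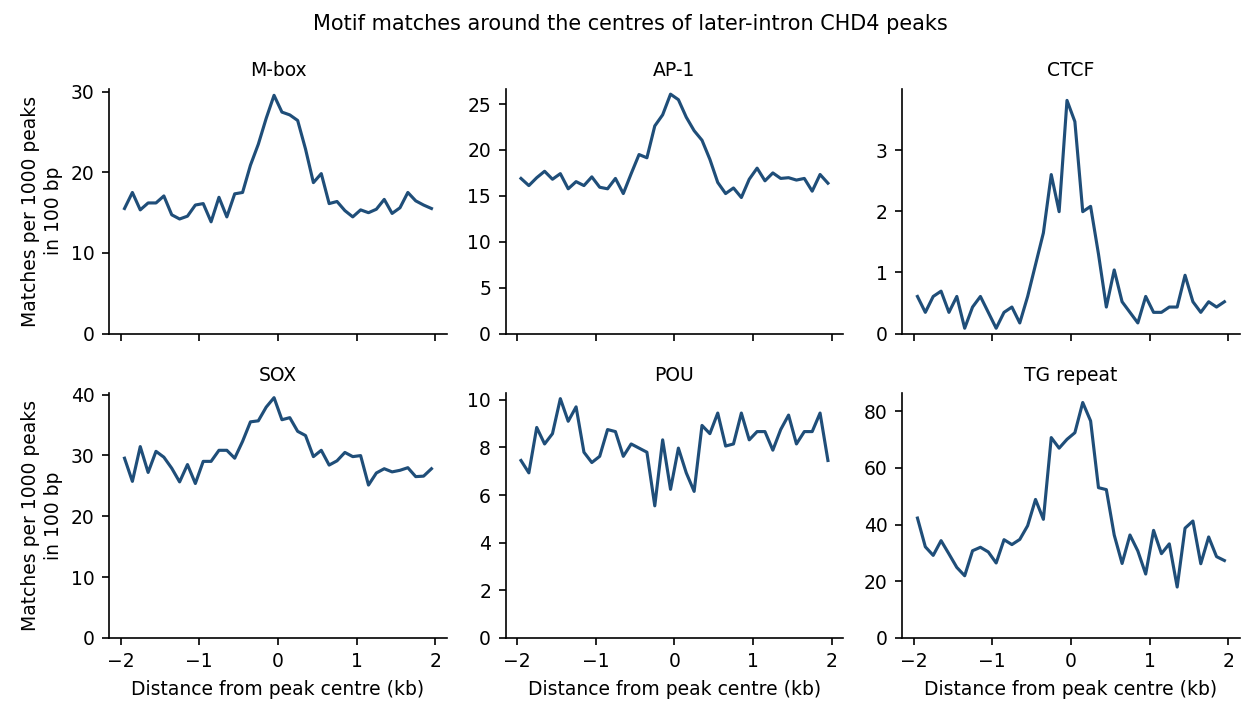
Matches of 6 motifs per 1000 later-intron peaks in bins of 100 bp (vertical axis) against the distance from the peak centre in kb (horizontal axis, negative towards lower coordinates). Lines join the bins. The M-box rises to 29.6 and AP-1 to 26.1 per 1000 at the centre, CTCF to 3.81, and POU dips, with 5.55 in its lowest bin.

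Counts of the words of 8 letters found in at least 1% of centres, which use no motif, placed words like the M-box highest. Of these 18655 words, CATGTGAC ranked first, in 4.73% of centres and 1.42% of flanks, a ratio of 3.32. It was followed by CACATGAC with 2.97, CACGTGAC with 2.55 and TCACATGA with 2.30, and these words share the E-box cores CATGTG and CACGTG. CTTTGATC, a LEF/TCF-like word, ranked ninth with 2.07, and ATGACTCA, the AP-1 site with a leading A, ranked 18 with 1.92. In the windows printed at the start, the word lay 7 bp from the centre in both *ZRSR2* and *CHL1* and 45 bp from it in *FAM13A*. The word was not particular to later introns by its level, with 5.08% of centres (4.52% to 5.71%) in first introns and 4.48% (4.14% to 4.84%) between genes against 4.73% (4.36% to 5.13%), but it was at 2.97% (2.70% to 3.26%) at promoters.

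The share with CTCF varied between the classes. Its motif was found in 1.38% of later-intron centres (1.18% to 1.61%), a share whose interval overlaps that of promoters, 1.54% (1.34% to 1.75%). It was lower in first introns, at 0.512% (0.352% to 0.744%), and higher between genes, at 1.94% (1.71% to 2.19%), and in exons, at 2.97% (2.13% to 4.15%). Among later-intron peaks whose −log10 q was 5 or more, 9 of 175 held it, or 5.14%, and the *PSORS1C1* peak is one with the match 30 bp from its centre. AP-1 and the M-box were not more frequent in these strongest peaks. AP-1 was in 11.5% of peaks reaching a −log10 q of 2 and in 6.29% of the 175 reaching 5, and for the M-box these shares were 12.9% and 10.9%. In the 175 the ratio to flanks was 0.887 (0.430 to 1.83) for AP-1 and 1.15 (0.650 to 2.03) for the M-box, with intervals that include 1.

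TG repeats, defined as an unbroken TGTGTGTGTGTG on either strand, were searched for after the peaks of highest fold were seen. Their share among the strongest peaks is therefore not independent of that choice. They were found in 519 centres, or 4.50%, against 1.86% of flanks and 2.24% of all windows of the same length in later introns outside peaks, a ratio of 2.42 (2.11 to 2.78). The share was 4.12% in peaks with a −log10 q below 2 and 10.9% (19 peaks) in those of at least 5, and the *KCNN3* peak is one of these. Words with CG inside CA repeats, such as CGCACACA with a ratio of 2.26, were in the same top ranks. The M-box ratio in windows without a TG repeat was 1.67 (1.55 to 1.80). The GC content of centres was 42.0% on average, 0.714 percentage points (0.532 to 0.895) above that of flanks.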

How the data were processed

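ChIP-seq of 501Mel cells gave 1 library for CHD4 and 1 for input. The authors mapped single reads to hg19 with Bowtie, kept those with only 1 best position, and used MACS2 for broad peaks. The submitters' processing notes give bcl2fastq 2.17.1.14, Bowtie 1.0.0 and MACS2 2.1.1.20160309. Whether the call used the input as control is not given in the sources used here. The deposited list gives each region's enrichment as a ratio, ChIP to background, as the authors' peak caller wrote it. Beside it stand p and q, which the authors deposited as −log10, and these served only to rank and filter peaks. No read counts are in the list, so the depth behind a single value cannot be computed from it, and library totals were not used here.

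Positions were compared, counting from 1, with the GRCh37 sequence (the build that hg19 names) and GENCODE release 44 mapped to it. Peaks on chromosome Y (24) and the mitochondrial sequence (3) were left out. The same position rule applied to every base gave the sequence open to each class, from which unsequenced gaps and the 1000 bp around starts were removed. Repeated sequence where reads have no single best position was not removed from it, nor from flanks and tiles. The part of such sequence in the densities and ratios was not tested. Densities have exact Poisson intervals, shares Wilson intervals and ratios log-normal intervals, all at 95%; ratios at the same distance or GC content were combined by the Mantel-Haenszel method. The intervals of ratios were tested on simulated independent counts, and the motif search on a random sequence. Later-intron peaks came in groups, which the intervals do not allow for, so the intervals may be too narrow. Motif matches on both strands were counted in windows of 501 bp at peak centres, in flanks 5000 bp away and in tiles of later introns, the last 2 under no peak. A gene's surroundings are the 2 Mb on either side, promoters removed.

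The members, gene lists, motifs and tests were chosen with earlier results of these data known. Named genes are a list of 11 that the paper names with CHD4, the 10 with the most peaks, the 10 densest with at least 5, those of the 10 peaks of highest fold and up to 4 of each list; others were picked after their values were seen. Alternatives covered thresholds, joined peaks, promoter widths, annotation choices, windows and flanks. Python 3.11.15, pysam 0.24.0, scipy 1.17.1, matplotlib 3.10.9, pandas 2.3.3 and numpy 2.4.6 were used.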

Additional observations from a re-analysis of the deposited data

How the results depend on the processing

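No paired analysis was possible because neither library has a replicate to pair. Of 74 values recomputed under alternatives, 48 stayed within their interval (counts within 1.5 times), 24 moved and 2 turned direction, fewer peaks being part of some alternatives; beyond that the cause was not tested. The list carries no reads, so what depth limits in a single peak cannot be computed from it, and the intervals leave out the variation between libraries.

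With a −log10 q of at least 2, 4700 later-intron peaks remained at 6.59 per Mb, with a ratio to intergenic sequence of 1.18, a median fold of 3.40, 16.4% of genes with a peak and a median of 9792 bp to the nearest other peak. At 5 or more there were 175 peaks at 0.245 per Mb, and the ratio of later to first introns became 0.939. At the same distance from the start it turned to 1.15, and the ratio for AP-1 turned to 0.887, while that for CTCF became 13.1 and that for the M-box 1.15. With a threshold of 3 the share of peaks past it was 13.2%.

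The density was 13.7 per Mb with peaks within 1000 bp joined, 19.0 without length limits, 16.7 without chromosome X and 15.7 with promoters of 5000 bp, and 13.4 kb per Mb were covered when bases were counted. Promoters of 5000 bp gave ratios of 0.757 to first introns, 0.851 at the same distance and 1.40 to intergenic sequence. The ratio to intergenic sequence was 1.24 without chromosome X and 1.21 compared within each chromosome, an alternative added after the chromosomes were seen. The GC difference was 1.27 percentage points against all tiles, and the *PADI1* peak stood above 99.8% of later-intron peaks by −log10 q. The ratio of the second intron to introns from the sixth on and the M-box ratio were added after the data were seen.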
